A study of Mus musculus with 6 samples.

Results

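The 7 genes described here encode the main cannabinoid receptor of the brain and the central enzymes that make and remove its lipid ligands. They were taken by gene symbol from the 19943 genes with a count in at least 1 library: Cnr1, Dagla, Daglb, Mgll, Abhd6, Napepld and Faah. RNA of the medial prefrontal cortex, a frontal part of the cerebral cortex, was sequenced from C57BL/6 mice. The isolated group, 3 libraries named isolated 1 to 3, came from mice kept alone for 3 weeks after weaning, and the control group, 3 libraries named control 1 to 3, from mice labelled control, whose housing the labels do not describe further. Every sample is labelled 6 weeks old, whereas the design text of the series gives 7 weeks. Neither the sex of the animals nor their number is labelled, and since nothing states that each library is a different mouse, the p-values reflect variation among libraries that may be technical.

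Endocannabinoids are lipids that neurons make on demand from membrane phospholipids and that travel backwards across the synapse. The receptor CB1, encoded by Cnr1, sits on axon terminals, couples to inhibitory G proteins and lowers transmitter release. In the cortex it is known for its high level on terminals of interneurons that contain cholecystokinin, with lower levels on terminals of excitatory cells, and it is also abundant in projection neurons of the striatum. The ligand 2-arachidonoylglycerol (2-AG) is made by the diacylglycerol lipases and removed mainly by monoacylglycerol lipase. The ligand anandamide is an N-acylethanolamine, which NAPE-PLD can release from its phospholipid precursor and fatty acid amide hydrolase breaks down.

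Depth was even, with expected counts summing to between 18390902 and 18606573 in isolated libraries and between 18226448 and 18544306 in control libraries. Markers of excitatory cortical neurons were present in all 6 libraries, with Slc17a7, a vesicular glutamate transporter, at 1567 to 1909 CPM (a count relative to library size, TMM-normalized) in isolated and 1562 to 1983 CPM in control libraries. Markers of striatal projection neurons, a cell type of the region beneath the cortex, varied within both groups. Their summed level over 15 genes was 526, 515 and 2533 CPM in isolated 1, 2 and 3, and 1086, 3534 and 316 CPM in control 1, 2 and 3, an 11.2-fold range. Isolated 3 and control 2 were therefore the highest of their groups, and control 1 lay between control 2 and control 3. The defining marker Drd2 was at 50.2 CPM in isolated 3 and 68.2 CPM in control 2. It was at 19.1 CPM in control 1 and at 0.604 CPM in control 3, where Isl1 was at 0. Markers of myelin-forming oligodendrocytes set isolated 3 apart but not control 2: 8 of them summed to 3572, 3846 and 6556 CPM in isolated 1, 2 and 3, and to 4591, 3270 and 2744 CPM in control 1, 2 and 3, with 8 of 8 positive, isolated over control, and 0 called by edgeR. Their part in the results was not tested. The differences of the 7 genes between groups are given with and without isolated 3 and control 2. With those libraries left out the striatal marker level was still uneven, at 1086 CPM in control 1 and 316 CPM in control 3.

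Ordered by FPKM, which is scaled for gene length and so allows levels to be compared between genes, Mgll stood first with a mean of 87.6 FPKM over the 6 libraries. Cnr1 (38.7 FPKM) and Dagla (38.6 FPKM) followed, then Faah (28.1 FPKM), Abhd6 (27.3 FPKM), Daglb (12.7 FPKM) and Napepld (4.90 FPKM). The gaps between Mgll and Cnr1, between Dagla and Faah, between Abhd6 and Daglb and between Daglb and Napepld were found in 6 of 6 libraries, with no overlap of their values. Cnr1 and Dagla could not be ordered, since Cnr1 exceeded Dagla in 2 of 6 libraries, nor could Faah and Abhd6, where Faah was higher in 4 of 6. Among all genes, 96.5% had a lower mean FPKM than Mgll, 90.4% a lower one than Cnr1 and 53.5% a lower one than Napepld. Between 286 and 6591 expected counts stood behind each value of these genes, with the fewest, and so the largest relative counting error, for Napepld.

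**Figure D1:**
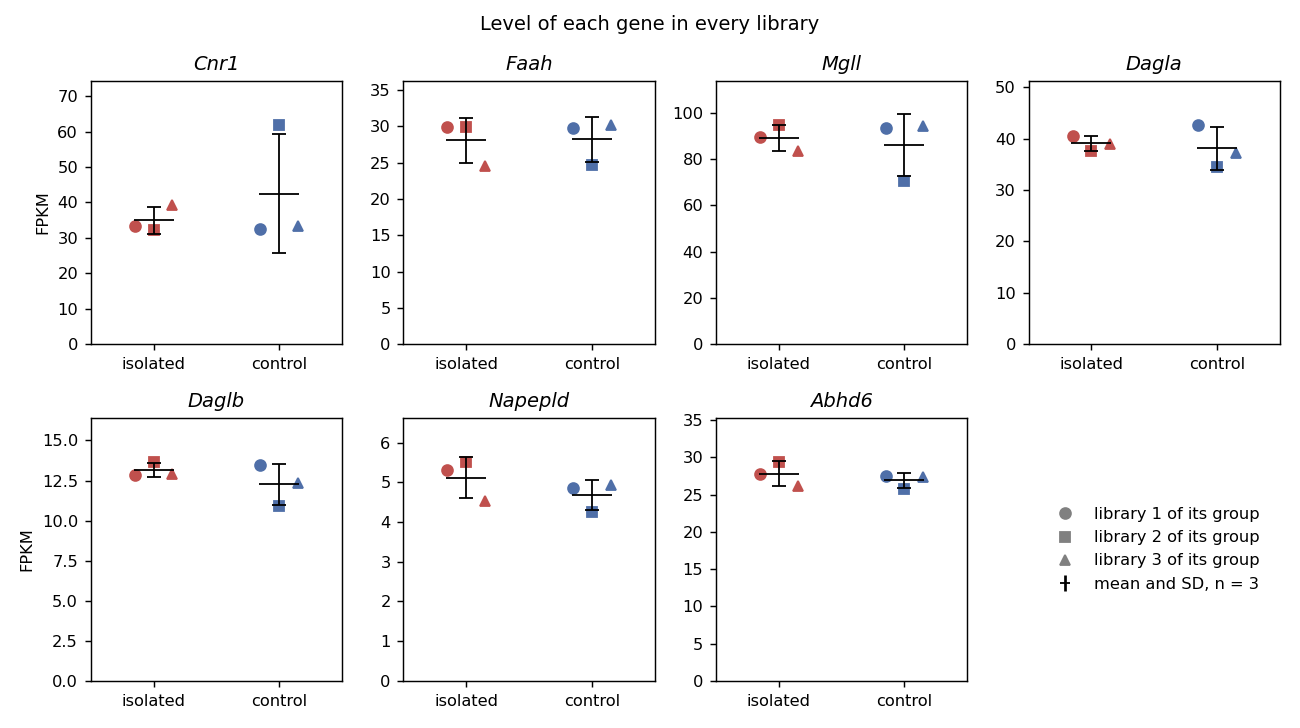
Level of each gene in FPKM (vertical axes, starting at 0) in the 3 isolated libraries (red) and the 3 control libraries (blue), with the mean and SD of each group in black. The groups overlap for all 7 genes, and Cnr1 has 1 value, 61.9 FPKM in control 2, far above the other 5.

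None of the 7 genes differed between isolated and control libraries beyond the spread between libraries. With edgeR's quasi-likelihood test and Benjamini-Hochberg adjustment over 15169 genes, 0 of the 7 passed an adjusted p of 0.05 in either direction, and 0 had an unadjusted p under 0.05. DESeq2 and limma-voom also called 0 of the 7 at either level. Over all genes tested the share called was 0% (0 of 15169 with edgeR, 1 with DESeq2 and 0 with limma-voom). An unadjusted p under 0.05 was found for 535 genes (3.53%) with edgeR, 306 with DESeq2 and 536 with limma-voom. The groups overlapped for all 7 genes, whereas they did not overlap for 8.85% of all genes tested. The median log2 difference of the 7 genes, isolated over control, was 0.04, with 5 positive and 2 negative values, beside a median of -0.0018 and 49.2% positive values over all genes tested.

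The receptor gene Cnr1 (chromosome 4, 33923171 to 33948831, GRCm38) had the largest difference in size of the 7 and the widest spread. It stood at 196, 188 and 228 CPM in isolated 1, 2 and 3, and at 190, 359 and 196 CPM in control 1, 2 and 3. Control 2 lay well above the other 5 values, which were close together. The means were 204 ± 20.8 CPM in isolated and 248 ± 95.9 CPM in control libraries (SD, n = 3 each), which gave a log2 difference of -0.28 (standard error 0.24, 95% interval -0.83 to 0.27, edgeR adjusted p = 0.999). Without control 2 the log2 difference was 0.08, and without both isolated 3 and control 2 it was -0.0046. It was -0.44 without control 1 and -0.43 without control 3. Leaving out isolated 1, 2 or 3 gave -0.255, -0.228 and -0.37. Within each group the library with the most Cnr1 was the one with the highest striatal marker level, isolated 3 among isolated and control 2 among control libraries. As a covariate, the striatal marker level was the mean log2 CPM of the 15 markers, not their sum. With this covariate the log2 difference was -0.23 (edgeR adjusted p = 0.836). Of the 15 striatal markers 0 had a positive log2 difference, and their summed level ranged from 515 to 2533 CPM in isolated and from 316 to 3534 CPM in control libraries. The part of these markers in the Cnr1 values was not tested. In whole tissue, fewer cells of a type and less RNA per cell cannot be told apart.

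For markers of the cortical interneurons in which Cnr1 is known to be abundant, the order of libraries depended on the marker. The summed level of 8 such markers, among them cholecystokinin (Cck), Sncg and Vip, was 442, 429 and 364 CPM in isolated 1, 2 and 3, and 412, 354 and 462 CPM in control 1, 2 and 3. It was lowest in isolated 3 and in control 2. Its most abundant member, Cck, which cortical excitatory cells also express, was at 280, 279 and 218 CPM in isolated and 253, 183 and 296 CPM in control libraries. Without Cck, the other 7 markers summed to 162, 150 and 146 CPM in isolated and 159, 170.5 and 166 CPM in control libraries, so that isolated 3 was still the lowest of its group and control 2 the highest of its own. The groups overlapped for both sums, and 4 of the 8 markers had a positive log2 difference.

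The 2-AG synthesis gene Dagla (chromosome 19, 10245265 to 10304877) encodes the diacylglycerol lipase that makes most 2-AG in the adult brain. It was at 233, 214 and 220 CPM in isolated 1, 2 and 3, and at 243, 195 and 214 CPM in control 1, 2 and 3. The highest and the lowest values were both from controls, so the isolated libraries lay inside the control range. The means were 222 ± 9.55 CPM in isolated and 217 ± 24.6 CPM in control libraries (SD, n = 3 each), a log2 difference of 0.03 with a 95% interval from -0.17 to 0.23. The sign was not stable: the log2 difference was -0.040 without control 2, -0.0021 without isolated 1 and -0.033 without both isolated 3 and control 2, and it was 0.12 without control 1.

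Its relative Daglb (chromosome 5, 143464484 to 143504442), known for 2-AG synthesis in microglia and macrophages, was at 42.4, 44.6 and 41.6 CPM in isolated libraries and 44.1, 35.3 and 40.7 CPM in control libraries. Isolated 2 was the highest of the 6 and control 2 the lowest. The log2 difference was 0.10 (95% interval -0.11 to 0.30). It was 0.017 without control 2, 0.17 without control 1 and 0.036 without both isolated 3 and control 2. Exons of Rac1 on the other strand cover 24.1% of the exon bases of Daglb in the GENCODE M21 annotation. No source used here says whether reads were counted by strand, so reads from that stretch could be uncertain. The expected counts of Daglb were nonetheless whole in 6 of 6 libraries, unlike where reads are shared out between genes. Those of Faah and Napepld were whole in only 4 of 6. Per length, Dagla exceeded Daglb in every library, with an FPKM ratio of 2.98 ± 0.203 in isolated and 3.11 ± 0.0842 in control libraries (SD, n = 3 each).

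Mgll (chromosome 6, 88724412 to 88828360) encodes monoacylglycerol lipase, the main enzyme of 2-AG breakdown, found in axon terminals and in glia. It was at 340, 358 and 313 CPM in isolated 1, 2 and 3, and at 353, 266 and 359 CPM in control 1, 2 and 3. Control 2 was the lowest and isolated 3 the next, and the other 4 values lay between 340 and 359 CPM. The means were 337 ± 22.5 CPM in isolated and 326 ± 52.2 CPM in control libraries (SD, n = 3 each), a log2 difference of 0.05 with a 95% interval from -0.23 to 0.32. An antisense gene, Gm26588, covers 3.29% of its exon bases. Without control 2 the log2 difference was -0.077, and without both isolated 3 and control 2 it was -0.029. It was 0.12 without control 3. Abhd6 (chromosome 14, 8002888 to 8056773), a membrane hydrolase that removes a smaller part of 2-AG and faces the inside of the postsynaptic cell, varied least. It was at 56.4, 59.1 and 51.8 CPM in isolated and 55.4, 51.4 and 55.5 CPM in control libraries, with a log2 difference of 0.04 and the narrowest of the 7 intervals, from -0.11 to 0.20. That difference was 0.00096 without isolated 2, 0.0093 without control 2, 0.093 without isolated 3 and 0.058 without both isolated 3 and control 2. Its highest library exceeded its lowest 1.15-fold, and 64.9% of the 10007 genes with a mean of at least 10 CPM had a larger ratio. For Cnr1 that ratio was 1.91, and 2.88% of those genes had a larger one.

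Napepld (chromosome 5, 21662901 to 21701622), which encodes NAPE-PLD, was at 19.7, 20.3 and 16.5 CPM in isolated and 17.9, 15.6 and 18.4 CPM in control libraries. Isolated 1 and 2 lay above all controls, whereas isolated 3 lay below 2 of the 3 controls. The log2 difference was 0.13 (standard error 0.11, 95% interval -0.12 to 0.37), and it was 0.21 without isolated 3, 0.057 without control 2, 0.068 without isolated 2 and 0.14 without both isolated 3 and control 2. Faah (chromosome 4, 115996668 to 116018837), which encodes fatty acid amide hydrolase, was at 115, 114 and 92.7 CPM in isolated and 114, 93.7 and 117 CPM in control libraries. Each group held a pair of libraries at nearly the same level and 1 low library, isolated 3 or control 2. The log2 difference was -0.0091 (95% interval -0.27 to 0.25), and it was 0.03 without control 1, 0.05 without control 3, 0.09 without isolated 3 and -0.10 without control 2. Without both isolated 3 and control 2 it was -0.0065.

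**Figure D2:**
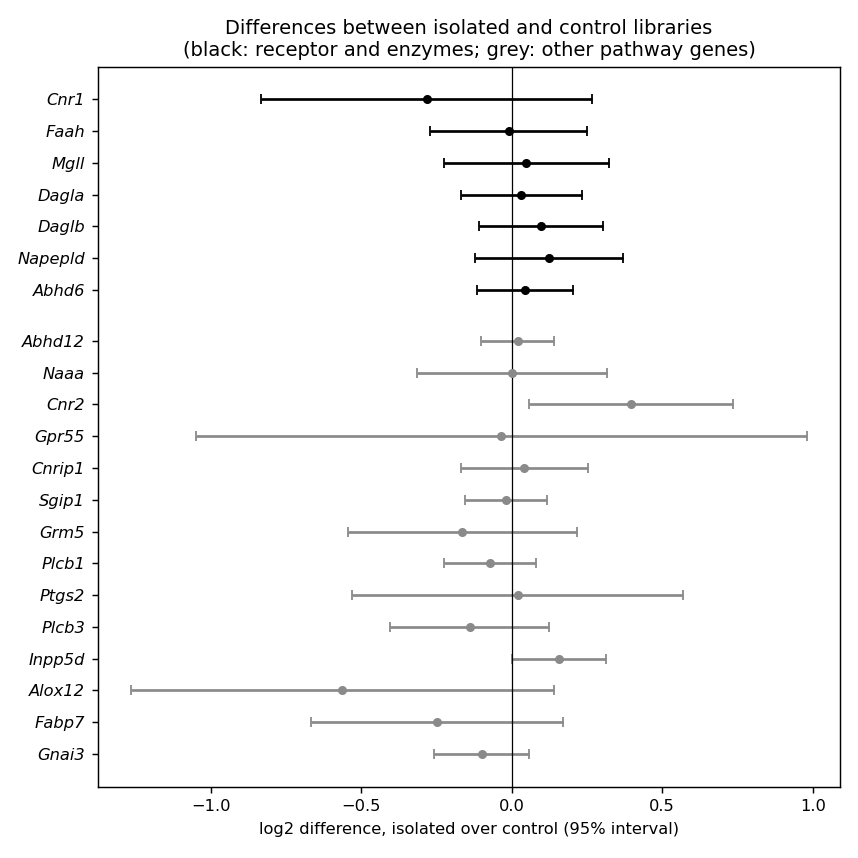
Log2 difference, isolated over control, with its 95% interval from edgeR (horizontal axis) for the receptor and enzyme genes (black) and for other genes of the pathway (grey). All 7 black intervals include 0, with Cnr1 the widest at -0.83 to 0.27, and Cnr2 and Inpp5d have intervals that do not include 0 before adjustment.

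Of the enzymes, 5 shared the lowest library of each group. Faah, Mgll, Daglb, Napepld and Abhd6 were each lowest in isolated 3 among isolated and lowest in control 2 among control libraries. This pattern was found in 18.0% of all genes tested. Dagla was lowest in control 2, but in the isolated group it was lowest in isolated 2. Cnr1 had the opposite pattern and was highest in both isolated 3 and control 2, as were 17.6% of all genes tested. These are the libraries with the highest striatal marker levels. Summed markers of excitatory cortical neurons were also lowest there, at 6975, 6946 and 5695 CPM in isolated 1, 2 and 3, and 6714, 5847 and 7369 CPM in control 1, 2 and 3. The part of either marker list in the pattern was not tested.

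**Figure D3:**
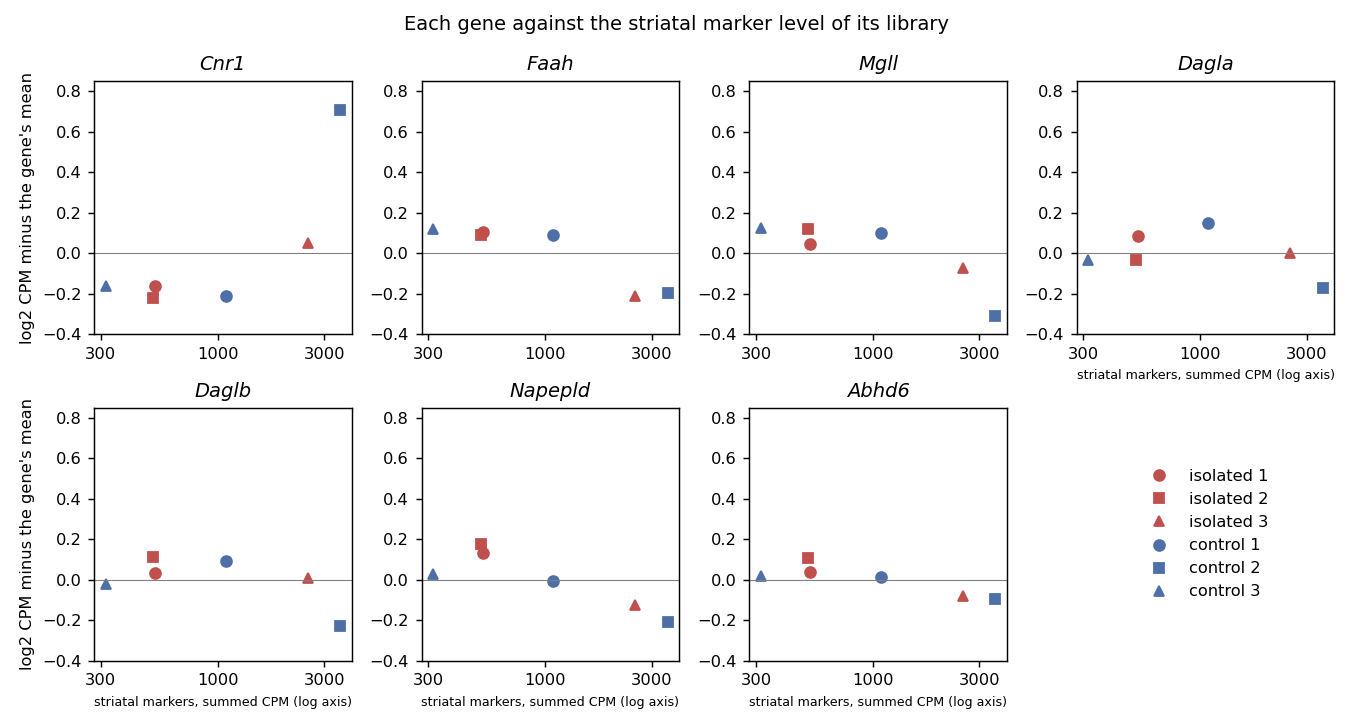
Log2 CPM of each gene minus its own mean over the 6 libraries (vertical axes) against the summed CPM of 15 striatal markers in the same library (horizontal log axes), with isolated libraries in red and control libraries in blue. Isolated 3 and control 2, at 2533 and 3534 CPM on the right, hold the highest Cnr1 values of their groups and the lowest Faah, Mgll, Daglb, Napepld and Abhd6 values.

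For 3 of the enzymes that shared their lowest libraries, Mgll, Napepld and Abhd6, the DNA before the gene is shown, from RefSeq promoter windows of the build GRCm38.p6. They are those of the 5 whose window has the outermost start of the RefSeq gene as its start site. Each run is 240 bases on the strand of the gene and ends 10 bases before that start, and capitals mark a motif match. The runs lie at chr6:88724162-88724401 (plus strand, Mgll), chr5:21701633-21701872 (minus strand, Napepld) and chr14:8002638-8002877 (plus strand, Abhd6).
Mgll: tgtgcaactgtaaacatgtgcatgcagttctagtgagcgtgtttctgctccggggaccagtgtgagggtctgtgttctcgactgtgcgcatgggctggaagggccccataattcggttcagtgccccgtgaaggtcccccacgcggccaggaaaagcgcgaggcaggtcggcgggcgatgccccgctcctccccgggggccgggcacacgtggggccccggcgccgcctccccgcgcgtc
Napepld: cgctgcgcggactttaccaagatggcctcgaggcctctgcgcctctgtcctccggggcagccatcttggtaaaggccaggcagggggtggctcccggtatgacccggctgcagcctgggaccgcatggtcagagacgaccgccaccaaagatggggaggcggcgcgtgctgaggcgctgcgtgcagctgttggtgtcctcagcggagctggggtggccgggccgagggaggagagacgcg
Abhd6: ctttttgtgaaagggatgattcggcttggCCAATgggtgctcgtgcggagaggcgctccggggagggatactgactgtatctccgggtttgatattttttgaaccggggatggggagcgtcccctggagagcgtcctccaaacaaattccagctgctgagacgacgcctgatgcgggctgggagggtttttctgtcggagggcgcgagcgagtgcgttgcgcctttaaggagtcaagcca

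Both strands were searched for the GC box GGGCGG, the CCAAT box CCAAT and the TATA box TATAAA, which do not overlap each other. The Abhd6 run held 1 CCAAT box, beside 33% of all 32851 windows of the same length with at least 1. None of the 3 runs held the GC box or the TATA letters, which occurred in 31.3% and 12.1% of all windows. CG dinucleotides numbered 23 in the Mgll run, 21 in the Napepld run and 18 in the Abhd6 run, against a median of 5 over all windows. Fewer were found in 88.2%, 85.2% and 80.2% of all windows, so such counts are not rare. These matches describe letters in the windows only, and the expression data do not show which start site was used.

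Ratios of FPKM within a library were computed for 8 pairs of the genes, 2 of which set an enzyme of breakdown over one of synthesis. Mgll stood above Dagla by a ratio of 2.29 ± 0.201 in isolated and 2.25 ± 0.243 in control libraries (SD, n = 3 each), with overlapping groups. Faah stood above Napepld by a ratio of 5.63, 5.41 and 5.40 in isolated 1, 2 and 3, and of 6.13, 5.79 and 6.11 in control 1, 2 and 3. These were the lowest 3 and the highest 3 of the 6 values, with means of 5.48 ± 0.132 in isolated and 6.01 ± 0.191 in control libraries. It was the only one of the 8 ratios in which the groups did not overlap. Among single genes tested, the groups did not overlap for 8.85%, and no such share was computed for ratios. The ratio of Faah to Napepld was singled out after its values were seen, and it was not tested. The ratio of Cnr1 to Mgll ranged from 0.340 to 0.472 in isolated and from 0.347 to 0.876 in control libraries.

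**Figure D4:**
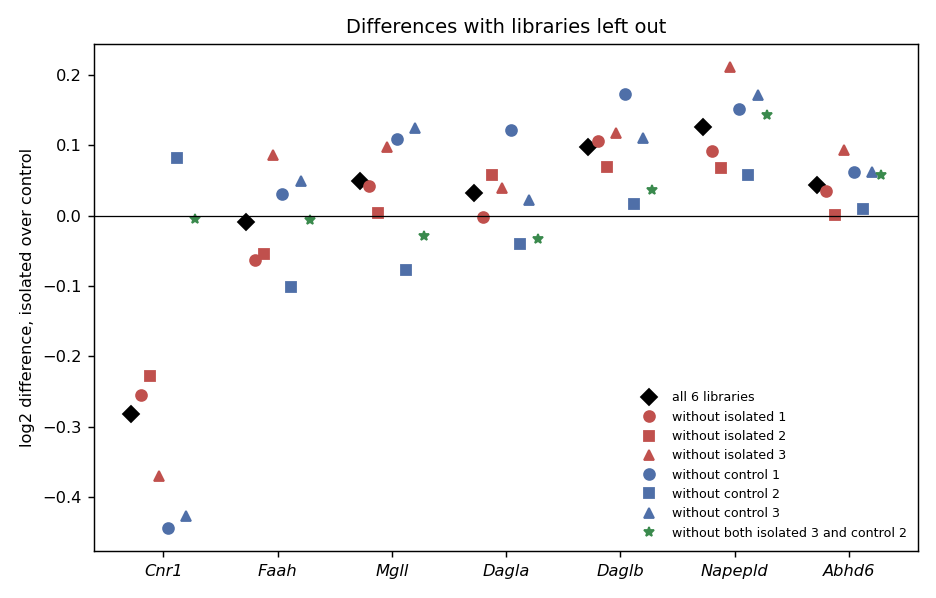
Log2 difference, isolated over control (vertical axis), of each gene with all 6 libraries (black) and with 1 or 2 libraries left out (red, isolated; blue, control; green star, isolated 3 and control 2 together). The Cnr1 value moves from -0.28 with all libraries to 0.08 without control 2 and to -0.44 without control 1. Those of Daglb, Napepld and Abhd6 stay above 0 in all settings shown.

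Of 43 other genes of the endocannabinoid system, 36 had enough counts to be tested, and 0 passed the edgeR adjusted p of 0.05 in either direction. DESeq2 and limma-voom also called 0. At an unadjusted p under 0.05 there were 2 with edgeR, 0 with DESeq2 and 1 with limma-voom. Over all 15169 genes tested there were 535 (3.53%) with edgeR, 306 with DESeq2 and 536 with limma-voom. The groups did not overlap for the 2 genes that edgeR gave, Cnr2 and Inpp5d, or 5.56% of the 36, beside 8.85% of all genes tested. The median log2 difference of the 36 genes was -0.0062, with 16 positive and 20 negative values.

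Cnr2 encodes the second cannabinoid receptor, CB2, known mainly from immune cells. It was scarce, at 3.42, 2.97 and 3.16 CPM in isolated and 2.38, 2.45 and 2.40 CPM in control libraries, so all 3 isolated libraries lay above all 3 controls. The log2 difference was 0.40 (standard error 0.15, edgeR unadjusted p = 0.027, adjusted p = 0.999), and without both isolated 3 and control 2 it was 0.42. Its expected counts were not whole in any of the 6 libraries, as happens where reads also match another gene and are shared out, so its level is uncertain. Inpp5d, a lipid phosphatase of blood cells and microglia that also takes part in one route to anandamide, was at 21.0, 20.9 and 20.5 CPM in isolated and 18.3, 18.1 and 19.7 CPM in control libraries, a log2 difference of 0.16 (edgeR adjusted p = 0.999) and of 0.14 without both isolated 3 and control 2. Summed markers of microglia ranged from 289 to 306 CPM in isolated and from 303 to 334 CPM in control libraries, with 0 of 6 markers positive. Their part in the Cnr2 and Inpp5d values was not tested.

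Among the other receptors and partners, Gpr55, a lipid receptor, was at 0.922, 1.36 and 1.49 CPM in isolated and 0.810, 2.23 and 0.824 CPM in control libraries. The channel gene Trpv1, which anandamide can open, was at or under 0.218 CPM in every library and was not tested. Cnrip1, whose protein binds the tail of CB1, was at 61.1 ± 5.51 CPM in isolated and 59.3 ± 5.42 CPM in control libraries (SD, n = 3 each). Sgip1, which slows the internalization of CB1, was at 221 ± 3.67 CPM in isolated and 224 ± 12.9 CPM in control libraries. In the chain that feeds 2-AG synthesis, the metabotropic glutamate receptor gene Grm5 was at 193, 203 and 248 CPM in isolated and 206, 304 and 212 CPM in control libraries. Like Cnr1, it was highest in isolated 3 and in control 2, and its log2 difference of -0.16 was 0.04 without control 2. The phospholipase gene Plcb1 was at 392 ± 15.7 CPM in isolated and 412 ± 26.4 CPM in control libraries, and Plcb3 had a log2 difference of -0.14. Without control 2 the log2 difference was -0.019 for Plcb1 (-0.073 with all libraries) and -0.047 for Plcb3.

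Among the remaining enzymes, Abhd12, a minor 2-AG hydrolase in brain, was at 309 ± 5.37 CPM in isolated and 305 ± 10.8 CPM in control libraries, a log2 difference of 0.02. Naaa, an acid hydrolase of N-acylethanolamines, was at 23.6 ± 3.48 CPM in isolated and 23.6 ± 3.40 CPM in control libraries. The cyclooxygenase gene Ptgs2, whose enzyme can oxidize 2-AG and anandamide and which neuronal activity induces, was at 16.8, 15.5 and 8.67 CPM in isolated and 11.3, 13.9 and 15.1 CPM in control libraries. The lipoxygenase gene Alox12 was scarce, at 0.539 ± 0.0867 CPM in isolated and 0.800 ± 0.179 CPM in control libraries. Its log2 difference of -0.56, the largest in size of the 36, had a 95% interval from -1.26 to 0.14. The lipid carrier gene Fabp7 and the inhibitory G protein gene Gnai3 had log2 differences of -0.25 and -0.10. Without control 2, where Fabp7 was at 10.3 CPM, these were -0.035 and -0.065. None of these passed the edgeR test, with an adjusted p that rounds to 0.999 or more for each. Leaving out 1 library turned the sign for Gpr55 (control 2 or isolated 1), Cnrip1 (control 1 or isolated 2), Sgip1 (control 2), Abhd12 (control 2), Naaa (control 1, control 3 or isolated 3) and Ptgs2 (control 1, isolated 1 or isolated 2), with values from -0.28 to 0.62 for Gpr55, the widest of these ranges.

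Markers of astrocytes, which also take part in 2-AG breakdown, and of endothelial cells had summed levels that did not overlap between groups. The 7 astrocyte markers summed to between 4163 and 4337 CPM in isolated and between 4475 and 4722 CPM in control libraries, with 0 of 7 positive and 0 called by edgeR. The 5 endothelial markers summed to between 158 and 168 CPM in isolated and between 173 and 179 CPM in control libraries, with 1 of 5 positive. Taken singly, the groups did not overlap only for Slc1a2, the largest part of the astrocyte sum, for Aqp4 and for the endothelial marker Flt1. They did not overlap for 8.85% of all genes tested, and no such share was computed for sums. No defining marker of either list was at 0 in any library, and their part in the values above was not tested.

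For each gene, the 3 genes of most similar pattern were taken by the root mean square difference of log2 CPM over the 6 libraries, each gene centred on its mean. With so few libraries and 15169 genes, close matches are easily found. For Cnr1 they were Ccrl2, Tekt5 and Tnfaip8l3, with differences of 0.05, 0.07 and 0.07. Each was highest in control 2, with Tekt5 at 5.91, 5.55 and 6.44 CPM in isolated and 5.73, 9.58 and 5.50 CPM in control libraries. For Faah they were Cxxc5, Mfsd4a and Rsad1, and for Mgll they were Sox5, Pik3r5 and Enkd1. Those of Dagla were Bmper, Pepd and Ddx27, those of Daglb were Elof1, Grin2d and Igf1r, those of Napepld were Ssbp3, Sh3bp5 and Ss18l1, and those of Abhd6 were Spast, Meg3 and Slc1a4. Ccrl2 was at or under 1.31 CPM in every library and rests on few counts.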

How the data were processed

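Per the labels' protocols, libraries from total RNA were read at a length of 50 bases on the BGISEQ-500 platform. The authors deposited, for each library, an expected count per gene (estimated reads, not normalized, with shared reads divided between genes) and an FPKM value, as named in the file headers. The submitters' processing notes list HISAT, Bowtie2, RSEM and the build mm10 and give no version or setting for them. A further table was not used, because its 6 FPKM columns carry codes that no label gives.

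A gene absent from one library's table counted as 0 there, and the single entry without a gene symbol, at most 0.00095% of counts, was left out. Rounded expected counts went into edgeR 4.0.16 (R 4.3.3) as follows: filterByExpr (minimum count 10, minimum total 15; 15169 genes kept, 4774 removed), TMM factors between 0.991 and 1.01, quasi-likelihood F-test of isolated against control without covariates, Benjamini-Hochberg adjustment over all genes tested. Log2 differences are isolated over control, with intervals from the t distribution. CPM are TMM-normalized. DESeq2 1.42.0 and limma 3.58.1 served as alternatives, with pseudocounts of 1 and 0.1 on log2(FPKM). Fold changes on that scale understate low genes. The procedure was tested on simulated data.

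The genes, the lists and the tests were chosen with earlier results of these data known. The text names the 7 genes, fixed pathway genes, the tested gene of smallest p in each role, and the 3 genes nearest in pattern to each of the 7. Gene coordinates are RefSeq, GRCm38.p6, to which 19899 of 19943 identifiers matched.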

Additional observations from a re-analysis of the deposited data

How the results depend on the processing

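Over 18 alternative settings, 0 of the 7 genes and 0 of the other pathway genes were called in any, and over all genes 0 were called except by DESeq2, which called 1 gene, Fkbp5. The signs of Daglb, Napepld and Abhd6 held in all 18 settings, but their sizes moved with single libraries: with 1 left out they ranged from 0.017 to 0.17, 0.057 to 0.21 and 0.00096 to 0.093. With 1 library left out, the log2 difference ranged from -0.44 to 0.083 for Cnr1, -0.10 to 0.086 for Faah, -0.077 to 0.12 for Mgll, -0.040 to 0.12 for Dagla, -0.0083 to 0.035 for Abhd12, -0.13 to 0.13 for Naaa, -0.28 to 0.62 for Gpr55, -0.012 to 0.12 for Cnrip1, -0.061 to 0.023 for Sgip1, -0.28 to 0.042 for Grm5 and -0.15 to 0.26 for Ptgs2. With isolated 3 and control 2 both left out it was -0.029 for Mgll, -0.033 for Dagla, -0.0015 for Naaa, 0.48 for Gpr55 and 0.035 for Sgip1. With limma-voom it was 0.10 for Gpr55 and -0.028 for Ptgs2. On log2(FPKM + 1), with or without a filter, it was 0.0048 for Gpr55 and -0.0070 for Ptgs2, and on log2(FPKM + 0.1) it was 0.070 for Gpr55 and -0.020 for Ptgs2. With the striatal level as covariate it was 0.057 for Gpr55 and -0.0086 for Ptgs2. Causes of these turns were not tested. Deviations of libraries with the same replicate number correlated at 0.0254, -0.269 and -0.492 across genes. Of the 3 isolated libraries, 0 correlated best with its own number. The deviations were taken from means of only 3 libraries, and striatal marker levels varied within both groups. The check therefore cannot decide whether the numbers pair the samples. With the replicate block edgeR called 0 genes, and the log2 difference was -0.22 for Cnr1, 0.053 for Gpr55 and -0.015 for Ptgs2. With 3 libraries a group, the 95% intervals still allow log2 differences as low as -0.83 for Cnr1 and as high as 0.37 for Napepld. Depth limits the scarce genes Cnr2, Gpr55, Alox12 and Trpv1 most.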
